A study of Mus musculus with 10 samples.

Results

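The AP-1 transcription factor genes Fos, Fosb, Fosl1, Fosl2, Jun, Junb and Jund, together with their relative Atf3, were followed across cell classes and stages of embryonic mouse back skin. These 8 genes were found by symbol among the 32285 genes listed for E15.5 and E17.5 and among the 27998 listed for E16.5. The family was selected on CPM (UMIs of a gene per 1000000 UMIs of all genes in the same class and library) in basal, suprabasal and fibroblast cells by stage and group, with lower levels in MOF cKO and QPC cKO epithelium already known. The differences between genotypes and between these classes are therefore given as descriptions and support nothing on their own.

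The series holds 10 single-cell RNA-seq libraries of total back skin, in which 3′ ends of transcripts were counted by unique molecular identifiers (UMIs). The stages E15.5 and E16.5 each had 2 libraries of Control and 2 of MOF cKO (MOFfl/fl/K14Cre) skin, and E17.5 had a single Control and a single QPC cKO (QPCfl/fl/K14Cre) library. Krt14-Cre, which recombines in skin epithelium, drove both deletions, of the histone H4 lysine acetyltransferase MOF (gene Kat8) or of the respiratory complex III subunit QPC (gene Uqcrq), so dermal fibroblasts were not targeted. Controls were wild-type or heterozygous littermates on a mixed C57Bl/6J and CD-1 background. The study describes the E15.5 MOF cKO embryo with the higher replicate number as mosaic in its epidermis. Stage went together with library chemistry and annotation, so levels at different stages cannot be told apart from these.

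AP-1 is a dimer of basic leucine zipper proteins. Jun proteins pair with each other or with Fos proteins, whereas Fos proteins cannot pair among themselves. Many members are immediate early genes, transcribed within minutes of growth factor, stress or wounding signals through kinases that act on serum response factor, Creb and Jun itself, and tissue dissociation is a known trigger. In the epidermis AP-1 is known for its part in proliferation and in the expression of differentiation genes such as Ivl and Lor. Atf3 is induced by stress and can pair with Jun proteins.

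Cells with more than 1000 and fewer than 6000 detected genes and under 10% mitochondrial UMIs were kept, which left 716 to 10653 cells in a library; before this, a library held 13609345 to 203392303 UMIs over all barcodes. Basal cells (at least 10 UMIs of Krt5 and Krt14, under 10 of Krt1 and Krt10) numbered 901 to 2584 in E15.5 and 239 and 464 in E16.5 control libraries, but 21 and 22 in the E16.5 MOF cKO libraries. Suprabasal cells (at least 20 UMIs of Krt1 and Krt10) numbered 9 and 13 there, and fibroblasts were cells with at least 30 UMIs of Col1a1 and Col3a1 and under 10 of Krt5 and Krt14. Basal markers that the limits did not use (Trp63, Itga6, Itgb4, Col17a1 and Krt15) all had UMIs in basal cells of every library, and their summed level was 3715 and 3886 CPM in control libraries of E15.5, 1143 and 2798 in those of MOF cKO. Kat8 had 13.0 and 13.7 CPM in E15.5 control basal cells and 13.4 and 10.3 in MOF cKO, and 16.4 and 14.9 against 8.31 and 4.51 at E16.5, the latter from 3 and 2 UMIs. In fibroblasts, which Krt14-Cre does not target, Kat8 was also lower in MOF cKO, with 6.83 and 5.98 CPM against 9.18 and 9.62 at E15.5 and 2.81 and 5.39 against 9.60 and 8.23 at E16.5. Uqcrq had 103 in the control basal cells of E17.5 and 45.7 in those of QPC cKO, but 69.4 in control and 122 in QPC cKO fibroblasts. A lower value in a class sum cannot be told apart from a different mix of cells in the class or less RNA of the gene per cell. Whether the 3′ tags lie in the deleted part was not given in the sources used here.

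Stretches of 130 bases before the RefSeq transcript start (GRCm38.p6) are shown for Fos, Jun, Junb and Atf3, whose levels the results turn on, since cyclic AMP and stress signals are known to act at sites of this kind. Of the 8 genes, 7 had a promoter entry. Capitals mark TGACG on either strand (read as CGTCA on the printed strand when on the other), TGACATCA and TATAAA.
Fos: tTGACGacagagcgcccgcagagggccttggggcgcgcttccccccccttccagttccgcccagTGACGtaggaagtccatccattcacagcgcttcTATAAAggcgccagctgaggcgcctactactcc
Jun: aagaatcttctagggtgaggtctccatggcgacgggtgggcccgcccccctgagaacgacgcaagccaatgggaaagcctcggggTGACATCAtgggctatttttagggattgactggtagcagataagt
Junb: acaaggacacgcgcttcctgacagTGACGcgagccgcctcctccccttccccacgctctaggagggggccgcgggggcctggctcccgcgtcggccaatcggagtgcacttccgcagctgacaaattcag
Atf3: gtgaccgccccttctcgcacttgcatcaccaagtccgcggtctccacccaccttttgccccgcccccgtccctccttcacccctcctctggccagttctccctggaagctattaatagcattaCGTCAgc
They lie at chr12:85473760-85473889 (plus strand), chr4:95052223-95052352, chr8:84978749-84978878 and chr1:191183334-191183463 (minus strand), the last inside the span that GENCODE gives Atf3. Fos held TGACG at 129 and 66 bases before the start and TATAAA at 33. Jun held TGACATCA at 45 bases before its start, and Junb and Atf3 held TGACG at 106 and 7 bases. Fosb, not printed, held TGACG at 60 bases. Over all 32851 promoter entries, 12.2% held TGACG in this window, 2.19% TGACATCA and 6.83% TATAAA, with both strands searched. The full AP-1 site TGACTCA (2.49% of entries) and the full cyclic AMP site TGACGTCA, which contains TGACG (1.297%), had no match among the members with an entry.

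Levels in control skin. Fos and Jun made up most of the family at E15.5. Fos, the prototype of the family, had 3696 and 3465 CPM in E15.5 control basal cells, and Jun, its classical partner, 2999 and 2889. The 8 genes together took 1.11% and 1.05% of all UMIs in these cells. UMIs here count 3′ ends, 1 for each captured transcript, and were not divided by length. Fosl1 (Fra-1), known for its role in migrating and wounded epithelium, had the lowest level, 41.9 and 39.8, and Fosl2 (Fra-2) had 89.5 and 88.6. Atf3 lay at 1741 and 1636.

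Control levels of most members were lower at E16.5. Fos averaged 779 ± 357 CPM (SD, n = 2) in E16.5 control basal cells, 4.60-fold under its E15.5 mean, and Atf3 averaged 123 ± 48.1, 13.8-fold under. Fosb, whose product resembles Fos, was 20.7-fold under. Junb, which can limit Jun activity, was nearly level between the stages, with a mean of 920.4 ± 68.5 (SD, n = 2) at the earlier and 871 ± 314 (SD, n = 2) at the later. The 2 E16.5 control libraries differed from each other by 1.32-fold for Jun to 2.74-fold for Fosb in basal cells, always with replicate 1 higher, whereas the E15.5 control libraries differed by at most 1.11-fold. In that E16.5 replicate 1, 31.4% of basal cells also had 30 or more UMIs of Col1a1 and Col3a1, against 4.96% in replicate 2, and the part of this in the levels was not tested beyond the values without those cells.

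Between classes of the same control libraries, Junb, Jund, Atf3 and Fosb were lower and Fosl2 higher in suprabasal than in basal cells. The edgeR quasi-likelihood fit with the library as a block put these 5 of 8 members past an adjusted p of 0.05, beside 32.0% of the 11248 genes tested. Fosl2 was higher in suprabasal than in basal cells in 5 of 5 control libraries, by 1.20- to 1.53-fold, with a log2 fold change of 0.47 ± 0.10 (SE). Junb (-0.56 ± 0.15) and Jund (-0.46 ± 0.14) were lower in 5 of 5. Fosb (-0.78 ± 0.24) was lower in 5 of 5 and Atf3 (-0.62 ± 0.17) in 4 of 5. Only Fosl2 stayed past the threshold with each library left out in turn. Fos, Jun and Fosl1 had log2 fold changes of -0.41 ± 0.20, -0.22 ± 0.21 and -0.59 ± 0.29.

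Basal cells held more fibroblast RNA than suprabasal cells in all 5 control libraries. Fibroblast markers summed to 1214 to 11501 CPM in control basal cells and to 328 to 722 in control suprabasal cells. Without cells with 30 or more UMIs of Col1a1 and Col3a1, the difference was smaller for Fosb (-0.35 ± 0.16) and Junb (-0.42 ± 0.16), and these left the calls, so that 3 members stayed past the threshold beside 40.6% of genes. Fosl2 (0.57 ± 0.10), Atf3 (-0.69 ± 0.18) and Jund (-0.37 ± 0.12) were the 3. With the library as a block, these p-values measure how the difference between classes varied from library to library. For MOF cKO against control within a class, they measure the spread between libraries of a group. The labels do not tie the libraries to separate litters.

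Against fibroblasts, Fosl1, Atf3 and Jun were higher and Junb and Jund lower in basal cells. The fit put these 5 of 8 members past the threshold, beside 59.6% of 14424 genes. Fosl1 was near 0 in fibroblasts at E15.5, with 0.691 and 0.885 CPM in control fibroblasts (37 and 61 UMIs) against 41.9 and 39.8 in basal cells, but at E17.5 the control fibroblasts had 6.67 and the basal cells 4.28. Its log2 fold change over the 5 libraries was 3.99 ± 1.41. Atf3 was 1.05- to 5.92-fold higher in basal cells in 5 of 5 control libraries (1.43 ± 0.48), and Jun 1.05- to 1.79-fold (0.50 ± 0.17). Junb (-0.47 ± 0.08) and Jund (-0.41 ± 0.11) were lower in basal cells in 5 of 5. Junb alone stayed past the threshold with each library left out in turn. Without basal cells with 30 or more of these collagen UMIs, 5 members were again past it, beside 64.3% of genes, with Fosb (-1.28 ± 0.42) in place of Fosl1 (4.04 ± 1.73).

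**Figure D1:**
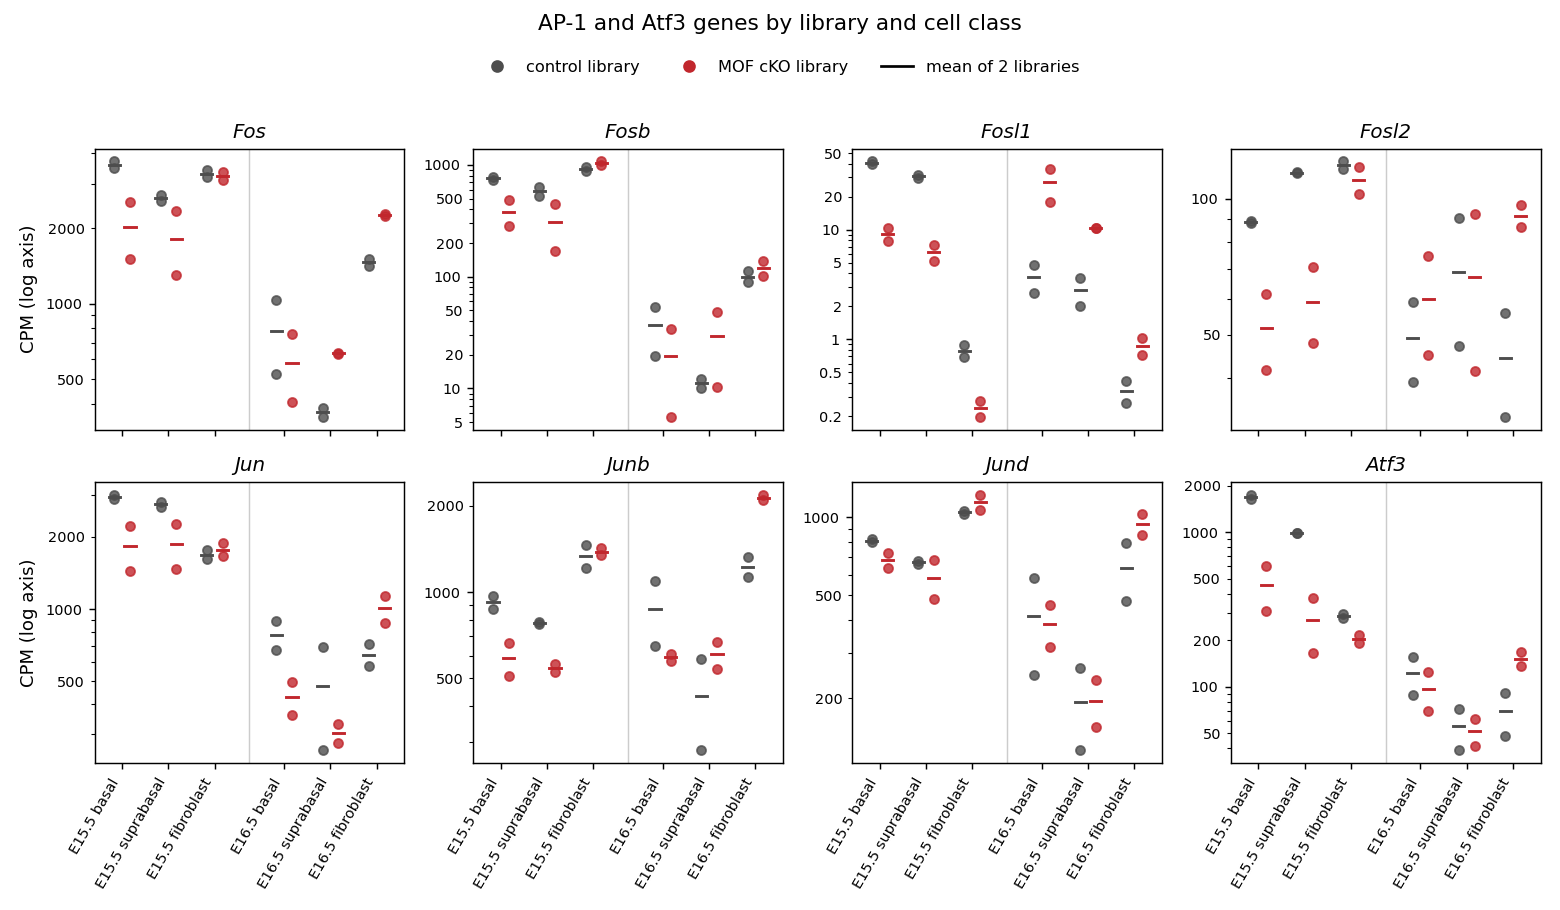
Level of each gene in CPM (log axis) in basal, suprabasal and fibroblast cells at E15.5 and E16.5; each point is a library and each bar the mean of 2. In E15.5 basal cells both MOF cKO points lie under both control points in all 8 panels, and at E16.5 Fosl1 lies higher in MOF cKO basal cells.

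MOF cKO at E15.5. All 8 members had lower levels in both MOF cKO libraries than in both control libraries in basal cells, a pattern that 32.9% of the 14364 genes tested also had. Atf3 had 308 and 603 CPM in MOF cKO basal cells, against 1741 and 1636 in control. The groups lay far apart, and the log2 fold change was -1.79 ± 0.25 (SE). Fosl1 had 7.87 and 10.4 against 41.9 and 39.8, a log2 fold change of -2.03 ± 0.13, and here the MOF cKO libraries were close to each other.

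The other Fos genes were lower by smaller factors. Fos had 1508 and 2552 CPM in MOF cKO basal cells against 3696 and 3465 in control (-0.70 ± 0.21). Fosb had 282 and 484 against 776 and 740.4 (-0.87 ± 0.19), and Fosl2 had 41.8 and 61.4 against 89.5 and 88.6 (-0.66 ± 0.13). In each, replicate 5 was the lower of the MOF cKO libraries.

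Among the Jun genes, Jun and Junb were lower and Jund barely so. Jun had 1443 and 2226 CPM against 2999 and 2889 (-0.56 ± 0.18). Junb had 510.2 and 666 against 969 and 872 (-0.51 ± 0.13). Jund, the member known for steady expression, had 639 and 730.4 against 823 and 803, with a log2 fold change of -0.10 ± 0.12.

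In the edgeR quasi-likelihood test, 0 of 8 members passed an adjusted p of 0.05, as did 0.0% of the 14364 genes. At an unadjusted p under 0.05, edgeR had 7 of 8 members (all but Jund) and 1309 genes (9.11%). At an adjusted p under 0.05, DESeq2 called 3 members (Fosl1, Atf3 and Fosb) and 113 genes (0.787%). Without MOF cKO replicate 5 the test called 7 of 8 members among 747 genes (4.97%), and without replicate 6 again 7 of 8 among 7518 (49.4%), with the lone MOF cKO library assumed to vary like the controls. The median log2 fold change was -0.68 over the members and -0.01 over all genes. Basal markers fell alongside, as given above, and the summed fibroblast markers were 1214 and 1248 CPM in control and 1432 and 1690 in MOF cKO basal cells. Suprabasal markers had 925 and 897 in control against 527 and 692 in MOF cKO. Hair germ markers had 131 and 123 against 88.5 and 82.6, and mural markers 9.99 and 6.63 against 80.4 and 13.9. Erythroid markers (haemoglobin genes) had 18480 and 21859 against 33728 and 12682. Their part in the levels was not tested.

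The MOF cKO libraries of E15.5 were compared member by member, replicate 6 being the embryo described as mosaic. Atf3 in replicate 6 was lowered 78.6% as far from the control mean as in replicate 5, and Fosl1 92.5% as far. For the other 6 members the share was 47.4% (Jund) to 62.0% (Junb). Over the 1515 genes at 20 or more CPM in control and at least 1.5-fold lower in replicate 5, chosen on that library's values, the median share was 15.7% with quartiles of -2.71% and 29.1%. A choice on replicate 5 alone can lower the share in replicate 6, and the members were chosen on lower levels in MOF cKO. Jund, at 78.5% of control in replicate 5, would not enter that set. The shares of members and genes are therefore not set against each other.

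Per cell, most basal cells of the MOF cKO libraries lay lower. With each basal cell thinned to 5000 UMIs, the 8 genes summed to a median of 55 and 51 UMIs per cell in control, 22 in MOF cKO replicate 5 and 35 in replicate 6. Of the control cells, 10% lay at or under 24 and 22 UMIs, about where the median of replicate 5 was. Replicate 6 formed a single peak between the others, as the plot of UMIs per cell shows. At that depth Fosl1 had a UMI in 16.8% and 16.1% of control basal cells and in 3.48% and 4.59% of MOF cKO basal cells, against 0.0409% to 0.414% of fibroblasts in the same libraries, which hardly have the gene. Before thinning these basal shares were 39.4% and 41.7% in control and 12.3% and 15.2% in MOF cKO, with median depths of 15800 to 19948 UMIs per basal cell, and 0.23% to 1.15% of fibroblasts, with 11212 to 13221 UMIs per cell.

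**Figure D2:**
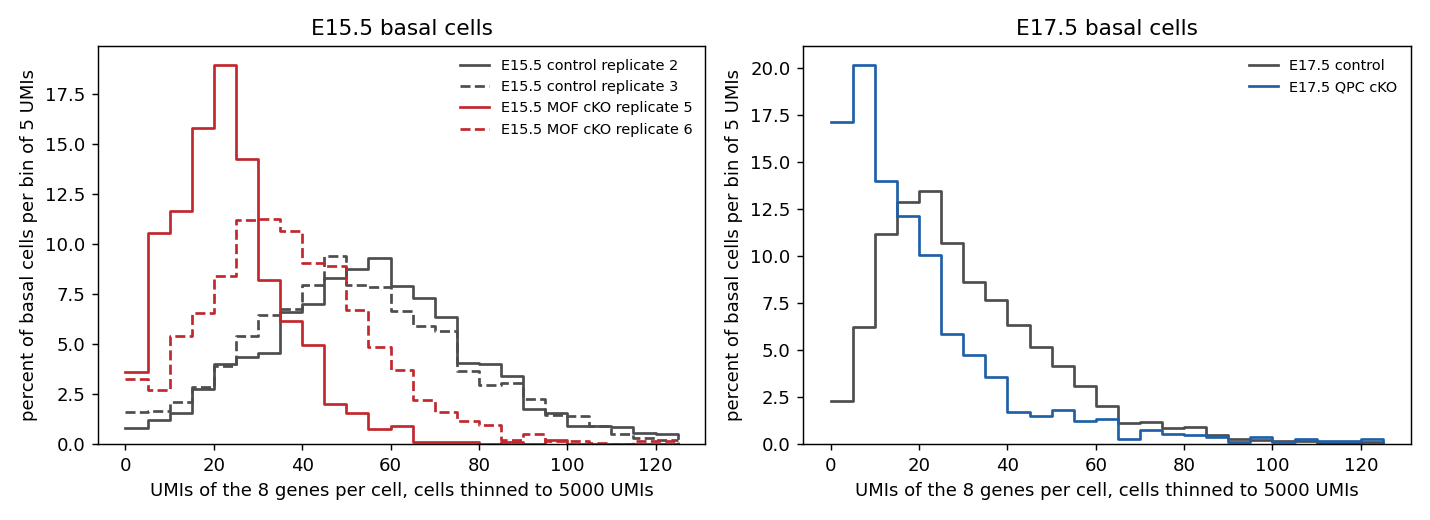
Distribution over basal cells of the summed UMIs of the 8 genes, with each cell thinned to 5000 UMIs (horizontal axis, shown up to 125) and the percent of cells in bins of 5 UMIs (vertical axis), for E15.5 libraries on the left and E17.5 libraries on the right. MOF cKO replicate 5 peaks at the lowest values, replicate 6 lies between it and the controls, and the QPC cKO cells peak under the E17.5 control cells.

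In suprabasal cells of E15.5, Fosl1 and Atf3 again had the largest negative values. Atf3 had 166 and 377 CPM in MOF cKO suprabasal cells against 991 and 980.5 in control (-1.82 ± 0.31). Fosl1 had 7.26 and 5.22 against 29.7 and 31.6 (-2.18 ± 0.32), and Fosl2 had 47.9 and 70.4 against 114 in each control library (-0.87 ± 0.16). Of the 8 members, 7 lay lower in both MOF cKO libraries than in both controls, beside 21.8% of 10819 genes; the exception was Jund, with 484 and 683 against 681 and 660.4. The edgeR test called 0 of 8 members and 0.0% of genes, with 836 genes and 4 members at an unadjusted p under 0.05, while DESeq2 called 49 genes (0.453%) and 2 members, Fosl1 and Atf3. Basal markers summed to 3938 and 2527 CPM in these control cells and to 420.3 and 1628 in MOF cKO, fibroblast markers to 526 and 328 against 982 and 883, and immune markers to 21.2 and 17.9 against 95.3 and 42.8. Without cells with 30 or more UMIs of Col1a1 and Col3a1, the log2 fold change of Atf3 was -1.84 and that of Fosl1 -2.31.

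Fibroblasts, which Krt14-Cre does not target, had nearly level Fos and Jun genes at E15.5. Fos had 3119 and 3363 CPM in MOF cKO fibroblasts and 3423 and 3192 in control, so the groups overlapped, and its log2 fold change was -0.05 ± 0.08. Jun (0.04 ± 0.08), Junb (0.03 ± 0.11), Fosl2 (-0.13 ± 0.10), Jund (0.11 ± 0.07) and Fosb (0.13 ± 0.07) were all within 0.14 of 0 on the log2 scale. Atf3 was the exception among abundant members, with 217 and 191 against 294 and 278 (-0.51 ± 0.10). Fosl1 in fibroblasts rested on 25 and 19 UMIs in MOF cKO against 37 and 61 in control (-1.76 ± 0.33). Both lay lower in both MOF cKO libraries. Fosb (993 and 1075 CPM against 968 and 884) and Jund (1066 and 1220 against 1061 and 1026) lay higher in both. The share of all genes with such patterns was not counted in this class. Basal markers summed to 71.3 and 81.9 CPM in these control fibroblasts and to 44.6 and 59.1 in MOF cKO. Suprabasal markers had 41.0 and 40.4 against 48.4 and 62.4, mural markers 110.3 and 127.7 against 166.1 and 174.1. Endothelial markers had 8.32 and 7.43 against 15.3 and 11.6. Their part in the Atf3 and Fosl1 values was not tested. The edgeR test called 0 of 8 members and 0.0% of 16268 genes, with 2538 genes and 2 members (Atf3 and Fosl1) at an unadjusted p under 0.05, and DESeq2 called 494 genes (3.04%) and Atf3.

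Tested in the same libraries, the MOF cKO change in basal cells minus that in fibroblasts was negative for all 8 members and for 52.8% of all genes (median -0.60, against -0.03 over all genes). It was -1.33 ± 0.31 for Atf3, -1.05 ± 0.18 for Fosb, -0.69 ± 0.18 for Fos and -0.64 ± 0.14 for Jun. For Fosl1, low in both classes of MOF cKO, it was -0.28 ± 0.34. None of the 8 passed, as with 0.0% of 16361 genes (edgeR), and 1122 genes and 6 members were at an unadjusted p under 0.05. Without MOF cKO replicate 5, 6 members passed beside 3.26% of genes, and without replicate 6, 6 passed beside 39.1%.

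**Figure D3:**
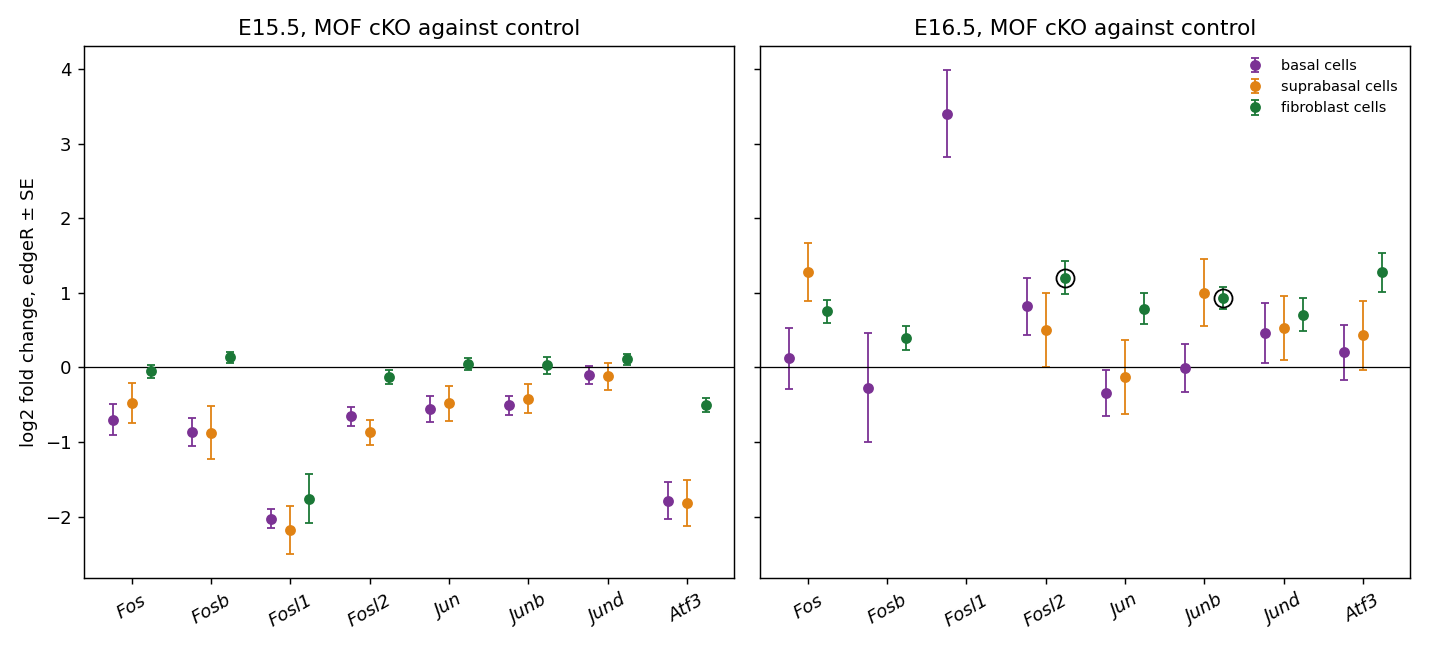
Fitted log2 fold change of MOF cKO against control (edgeR, points with SE bars) for each gene in basal, suprabasal and fibroblast cells at E15.5 (left) and E16.5 (right); circles mark calls at an adjusted p of 0.05 and genes that were not tested have no point. At E15.5 epithelial points lie under 0 and most fibroblast points near it, and at E16.5 all 7 fibroblast points lie above 0.

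MOF cKO at E16.5. In basal cells, of which MOF cKO had few, Jun and Junb lay lower in CPM, Fosl1 higher, and the other 5 members overlapped between groups. Of the 9454 genes tested, 51.5% lay lower in both MOF cKO libraries than in both controls and 10.6% higher. Jun had 360.3 and 496 in MOF cKO against 888 and 674 in control, and Junb 609.7 and 575 against 1093 and 649, without overlap. Fos had 405 and 760.1 against 1032 and 527, Atf3 69.3 and 124 against 157 and 88.8, and both overlapped. The direction depended on the scaling for Fos, Atf3 and Jund. With TMM scaling the log2 fold changes were -0.35 ± 0.31 for Jun, -0.01 ± 0.32 for Junb, 0.12 ± 0.41 for Fos, 0.20 ± 0.37 for Atf3, 0.46 ± 0.41 for Jund, 0.82 ± 0.38 for Fosl2 and -0.27 ± 0.73 for Fosb. Scaled by library size alone, Fos (-0.43), Atf3 (-0.34) and Jund (-0.11) turned negative, and the median of all genes moved from -0.11 to -0.64.

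Fosl1 was the member that stood higher in MOF cKO basal cells at E16.5. It had 36.0 and 18.0 CPM, from 13 and 8 UMIs, against 4.77 and 2.65, from 16 and 18 UMIs, in control. The groups did not overlap, and the log2 fold change was 3.40 ± 0.58. Its control levels lay under the count filter, so Fosl1 entered the fit through its MOF cKO counts, which fixes the direction of a call. The UMIs came from 7 of 21 and 2 of 22 MOF cKO basal cells, with up to 4 and 6 UMIs in a single cell, and from 10 of 239 and 13 of 464 control cells, so the value rests on few cells. The edgeR test called 0 of 8 members and 0.243% of 9454 genes (23 genes), with 1 member, Fosl1, and 1923 genes at an unadjusted p under 0.05; DESeq2 called Fosl1 and 295 genes (3.12%).

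The difference between stages in the basal MOF cKO change was tested itself. It was positive for all 8 members with TMM scaling (median 0.67, against -0.28 over all genes), while 61.5% of all genes were negative. For Jun it turned to -0.17 with library size alone. Without E16.5 MOF cKO replicate 2 it turned to -1.27 for Fosb and -0.05 for Jun. For Fosl1, lower at E15.5 and higher at E16.5, it was 5.38 ± 0.53 on the log2 scale, the only member called. This call (0.0152% of 13189 genes, 2 genes in all) was lost under library size alone and without E15.5 control replicate 3, either E15.5 MOF cKO library, E16.5 control replicate 1 or E16.5 MOF cKO replicate 1. Atf3 (1.93 ± 0.47) and Fosl2 (1.40 ± 0.37) had the next largest values and did not pass.

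Other cells' markers also moved in these small classes. The 5 basal markers summed to 2931 and 4405 CPM in E16.5 control basal cells and to 637 and 1080.3 in MOF cKO. Suprabasal markers had 785 and 1943 in control and 3883 and 1261 in MOF cKO. They stood above the basal markers in both MOF cKO libraries and under them in both controls. Immune markers had 18.0 to 150.5 in control and 127 to 862 in MOF cKO, and fibroblast markers 1518 to 4924 and 502 to 774. Erythroid markers had 4860 and 27099 against 6441 and 2519. The part of these markers in the Fosl1 and Jun values was not tested. The paper describes Krt5-high, Krt1-low suprabasal cells in E16.5 MOF cKO. Whether the basal limits took in such cells was not tested.

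In E16.5 suprabasal cells, 9 and 13 in MOF cKO, 6 members had counts enough for the test. Fos had 633 and 637 CPM in MOF cKO against 354 and 386 in control (1.28 ± 0.39), without overlap. Junb had 539.9 and 671 against 585 and 280 (1.002 ± 0.45) and overlapped between groups. Jun (-0.13 ± 0.50), Jund (0.53 ± 0.43), Fosl2 (0.50 ± 0.49) and Atf3 (0.43 ± 0.46) overlapped too. Fosl1 had 2 and 3 UMIs in MOF cKO and Fosb 2 and 14. The edgeR test called 0 of 6 members, beside 4.03% of 4266 genes, and Fos alone was at an unadjusted p under 0.05 with 1103 genes; DESeq2 called 227 genes (5.32%) and no member. Other measures moved with these values. The median mitochondrial share of a cell's UMIs was 0.0811% and 0.0693% in the MOF cKO suprabasal cells and 3.44% and 2.02% in control. Suprabasal markers summed to 13653 and 5046 CPM in MOF cKO against 46397 and 37310 in control. Basal markers summed to 145 and 980 against 2712 and 3919, and immune markers to 62.3 and 82.2 against 14.1 and 18.2. Their part in the Fos and Junb values was not tested.

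Most members tested had higher levels in the E16.5 fibroblasts of MOF cKO, and 2 of the 7 passed the test. All 7 members tested had positive log2 fold changes, 0.39 to 1.28, while 49.4% of all genes had negative ones. Of the 7, 6 lay higher in both MOF cKO libraries than in both controls, beside 18.1% of 12569 genes. Junb had 2089 and 2184 CPM against 1321 and 1129 (0.93 ± 0.15), and Fosl2 97.1 and 86.4 against 55.9 and 32.9 (1.20 ± 0.23). These 2 passed the edgeR test, beside 4.64% of genes called. Fos had 2242 and 2275 against 1511 and 1412 (0.75 ± 0.16), Jun 1139 and 877 against 713 and 576 (0.79 ± 0.21), and Atf3 136 and 168 against 91.1 and 48.1 (1.28 ± 0.26). These did not pass, nor did Jund (0.71 ± 0.22) and Fosb (0.39 ± 0.16). DESeq2 called 5 members beside 7.56% of genes. Scaled by library size alone, neither of the 2 stayed called, and with the replicate number as a block only Fosl2 did. The Junb call was lost without any 1 of the 4 libraries, and the Fosl2 call without control replicate 2 or either MOF cKO library.

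Immune markers moved the same way in these fibroblasts, from 19.3 to 35.8 CPM in control to 89.8 to 203 in MOF cKO, and mural markers from 53.4 to 68.2 to 96.1 to 103. Suprabasal markers went from 206 to 299 to 60.5 to 61.9. Their part in the AP-1 levels was not tested. The basal change minus the fibroblast change at E16.5 was negative for 7 of 8 members and for 64.5% of all genes (median -0.83, against -0.40 over all genes). It was -1.31 ± 0.32 for Atf3, -1.303 ± 0.33 for Jun and -1.11 ± 0.27 for Junb, and 1.72 ± 1.01 for Fosl1. None passed (edgeR, 0.0229% of 13072 genes called), with 3 members and 2000 genes at an unadjusted p under 0.05. Without E16.5 control replicate 2, Fos, Jun and Junb passed beside 5.03% of genes, and without control replicate 1 Jun alone did beside 1.44%.

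QPC cKO at E17.5. With a single library per group there is no test, and the intervals cover counting error only. Junb had the largest difference in basal cells, with 1745 CPM (95% Poisson interval 1735 to 1755) in control and 658 (648 to 668) in QPC cKO, a 2.65-fold lower level. Fosb had 263 and 139 (1.89-fold lower), Fos 1429 and 879 (1.63-fold) and Fosl2 125 and 81.0 (1.54-fold). Jund had 1297 and 868, just inside 1.5-fold, and Atf3 282 and 198. Jun was level, with 1125 and 1139. Of the 7 members at 20 or more CPM, 4 were at least 1.5-fold lower, beside 14.1% of the 6955 genes at that level, and none was 1.5-fold higher, beside 5.58%.

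The E17.5 control basal cells also carried more fibroblast RNA. Fibroblast markers summed to 11501 CPM there and 2360.5 in QPC cKO, and basal markers to 2388 and 3459, so that in this control the fibroblast markers stood above the basal ones and the suprabasal cells had more of the basal markers (6885). Of the basal cells, 45.2% in control and 9.19% in QPC cKO had 30 or more UMIs of Col1a1 and Col3a1. Without those cells, the log2 ratio of Junb was -0.92 in place of -1.41, that of Fosb -0.24 in place of -0.92 and that of Fosl2 -0.29 in place of -0.63. Fos (-0.86 in place of -0.70), Jund (-0.63 in place of -0.58) and Atf3 (-0.62 in place of -0.51) lay further down. The 4 members past 1.5-fold were then Fos, Junb, Jund and Atf3, in place of Fos, Fosb, Fosl2 and Junb, beside 4.76% of the 6593 genes at that level, and Jun had -0.25. Fosl1, from 283 and 75 UMIs, turned from -0.57 to 1.16. Other markers also differed between these basal sums with all cells kept. Hair germ markers had 145 CPM in control and 401 in QPC cKO, suprabasal markers 418 and 769, and melanocyte markers 194 and 327. Immune markers had 190 and 72.3, mural markers 174 and 60.4, myocyte markers 139 and 23.2, and erythroid markers 43.4 and 599. Their part in the levels was not tested.

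In E17.5 suprabasal cells 5 of 7 members were at least 1.5-fold lower in QPC cKO, beside 5.66% of 6214 genes, and none was 1.5-fold higher, beside 3.44%. Fos had 1669 (1633 to 1705) in control and 771 (734 to 810.0) in QPC cKO, and Jund 1092 and 617. Junb had 1015 and 587, Atf3 289 and 170.5, and Fosb 99.9 and 57.9. Jun (1302 and 1075) and Fosl2 (150.5 and 111) differed by less. With class limits per 10000 UMIs, 3 of the 5 stayed past 1.5-fold, Fos, Fosb and Jund. Suprabasal markers summed to 4010 CPM in these control cells and 4671 in QPC cKO, under the basal markers, which had 6885 and 4746. Fibroblast markers summed to 482 and 180, and melanocyte markers to 7.82 and 26.3. Their part in the levels was not tested.

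Fibroblasts of the same QPC cKO library went in both directions. Fos was 1.72-fold higher, at 2997 against 1744, and Jun 1.73-fold higher, at 1850 against 1067, while the shares of all genes at least 1.5-fold higher and lower were 4.2% and 4.36% of 6599. Fosl2 (85.0 against 150.3), Junb (1598 against 2449) and Atf3 (177 against 267) were at least 1.5-fold lower. Jund and Fosb were 1.31- and 1.29-fold higher. Fibroblast markers summed to 22723 CPM in these control cells and 16366 in QPC cKO, immune markers to 26.4 and 10.2, endothelial markers to 6.998 and 12.8 and melanocyte markers to 5.64 and 29.1; their part in the levels was not tested.

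**Figure D4:**
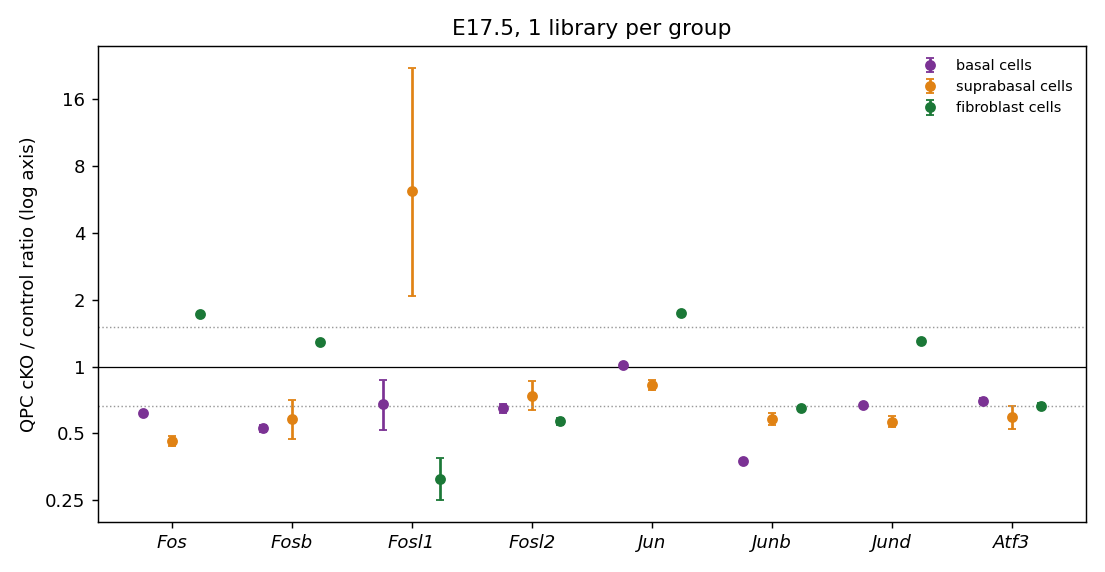
Ratio of QPC cKO to control CPM at E17.5 (log axis) for each gene in the 3 cell classes, with exact 95% intervals for counting error and dotted lines at 1.5-fold. Junb lies lowest in basal cells, Fos and Jun lie past the upper line in fibroblasts, and the suprabasal Fosl1 value rests on 5 and 13 UMIs.

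Genes around AP-1. Other immediate early genes, such as Egr1, Nr4a1 and Btg2, were mostly negative at E15.5 in basal cells, and at E16.5, with TMM scaling, 15 of 23 were positive. Library size alone lowered the median of all genes at E16.5 from -0.11 to -0.64, as given above, and the signs of the listed genes were not recomputed with it. At E15.5, 20 of 26 had a negative fold change in basal cells (median -0.34, against -0.01 over all genes) and edgeR called 0, with 12 at an unadjusted p under 0.05 beside 9.11% of all genes. At E16.5, edgeR called Ccn2 (4.06 ± 0.45, adjusted p = 0.0466) and Hbegf (4.60 ± 0.54, adjusted p = 0.0466), a ligand of the EGF receptor, higher among 23 tested in basal cells, beside 0.243% of all genes. Hbegf was low in control and entered the fit through its MOF cKO counts, which fixes the direction of its call. For Ccn2 this was not checked. In E16.5 fibroblasts, edgeR called 8 of 25 higher and 0 lower, beside 4.64% of all genes (305 higher and 278 lower), among them Socs3 (2.13 ± 0.27), Nr4a3 (1.23 ± 0.21) and Egr1 (0.94 ± 0.16), and 24 of 25 had positive values, with a median of 0.82 against 0.01 over all genes. Hbegf had 122 and 49.6 CPM in E16.5 MOF cKO basal cells and 5.66 and 4.42 in control, whereas Ccn1 (44.3 and 72.2 against 418 and 83.7), Ier3 (191 and 51.9 against 138 and 26.1) and Ier5 (80.4 and 69.9 against 44.1 and 28.5) did not pass.

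Among kinases, phosphatases and factors upstream of AP-1, edgeR called none in basal cells, 0 of 27 tested at the earlier stage and 0 of 26 at the later (0.0% and 0.243% of all genes), with 3 and 4 at an unadjusted p under 0.05, which 9.11% and 20.3% of all genes reached. Dusp1, a phosphatase that ends MAP kinase signals, had 445 and 469 CPM in E15.5 control basal cells and 171 and 345 in MOF cKO (-0.72 ± 0.25). At E16.5 the largest value was that of Dusp6, 1.37 ± 0.37, followed by Mapk3 with -1.17 ± 0.54, Map2k2 with 0.48 ± 0.29 and Dusp1 with 0.37 ± 0.36. In E16.5 fibroblasts Dusp1 (0.83 ± 0.15, edgeR adjusted p = 0.044) and Stat3 (1.42 ± 0.15, edgeR adjusted p = 0.0275) rose, 2 of 27 tested beside 4.64% of all genes.

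Other basic leucine zipper partners were called in neither stage in basal cells (0 of 25 and 0 of 21, edgeR, with 2 and 3 at an unadjusted p under 0.05, beside the same 9.11% and 20.3%), and Mafg had the largest value at E16.5, 2.21 ± 0.41. Atf4 had 0.74 ± 0.31 and Atf5 0.63 ± 0.41 there. In E16.5 fibroblasts Maf (1.22 ± 0.13, edgeR adjusted p = 0.0275) and Maff (0.86 ± 0.13, edgeR adjusted p = 0.0355) rose, 2 of 24 tested beside 4.64% of all genes. The genes that act with Atf3 in the integrated stress response had 0 of 9 and 0 of 8 called in basal cells by edgeR, with 0 and 4 at an unadjusted p under 0.05, again beside 9.11% and 20.3%; at E16.5 Eif4ebp1 had 1.40 ± 0.55, Ddit4 0.82 ± 0.50 and Psat1 -0.29 ± 0.39. At E15.5, when Atf3 itself was low, Atf4 had 143 and 174 CPM in MOF cKO basal cells and 157 and 160.1 in control.

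Heat shock genes, which encode chaperones, had mostly positive values in basal cells and not in fibroblasts. In basal cells 11 of 12 had positive values at both stages, while 51.3% and 55.3% of all genes had negative ones. The medians were 0.30 and 0.34 against -0.01 and -0.11 over all genes. The edgeR test called 0, beside 0.0% and 0.243% of all genes. At an unadjusted p under 0.05 there were 4 each time, beside 9.11% and 20.3% of all genes. With library size alone the median of all genes at E16.5 fell by more than that 0.34, and the list was not recomputed with it. In fibroblasts 10 of 12 were negative at E15.5 (median -0.081, 4 at an unadjusted p under 0.05) and 6 of 11 at E16.5 (median -0.017, 1 at that p), with 0 called by edgeR. Of all genes there, 49.6% and 49.4% were negative, 15.6% and 25.2% were at that p, and 0.0% and 4.64% were called. The difference between the classes was not tested. Hsp90ab1 had 4451 and 4393 CPM in E15.5 MOF cKO basal cells against 3439 and 3772 in control (0.45 ± 0.21). At E16.5 the largest values among those at a mean of 50 or more CPM in either group were those of Hspb1 (3.07 ± 0.77), Hspa1a (2.67 ± 0.35) and Hspe1 (0.86 ± 0.38).

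Of the genes known as AP-1 targets, several were near 0 in E16.5 control basal cells. In MOF cKO that class held more suprabasal than basal marker RNA, as given above, and its part in these values was not tested. Targets near 0 in control entered the fit through their MOF cKO counts, which fixes the direction of a call. No count or median over the list in E16.5 basal cells is therefore set against all genes. The genes past the threshold of edgeR were Ivl (6.12 ± 0.46), a cornified envelope precursor, Areg (6.60 ± 0.69), an EGF receptor ligand, and Mmp9 (8.06 ± 0.83), each with an adjusted p of 0.0466. Sprr1b, another envelope gene, had 2655 and 219 CPM in MOF cKO and 0 and 22.7 in control, and did not pass, nor did Tslp (313 and 51.9 against 1.19 and 0.295), S100a8 (85.9 and 18.0 against 0 and 0.590) and S100a9 (527 and 74.4 against 1.49 and 4.72). At E15.5, edgeR called 0 of 12 of these genes in basal cells, with 2 at an unadjusted p under 0.05 beside 9.11% of all genes. In E16.5 fibroblasts edgeR called S100a9 and Sprr1b higher and Lor and Ccnd1 lower, of 13 tested, beside 4.64% of all genes. Whether any of these entered that fit through a single group was not checked.

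Genes most like each member. Over the 30 library and class values, each member was set against 2687 genes at a mean of 50 or more CPM, the members left out. Each value was taken as a difference from its stage and class mean on the log2(CPM + 1) scale. Dusp1 was the gene most like Atf3 (Pearson r = 0.87) and most like Fos (0.85). Junb was most like Btg2 (0.87), Nr4a1 (0.87) and Socs3 (0.85). Jund was next to Tmem165 (0.85) and Egr1 (0.83), and Fosl2 to Pim3 (0.79) and Egr1 (0.78). Fosb was closest to Ctdsp2 (0.85) and Jun to Psme1 (0.86). Fosl1 had the weakest nearest gene, Fabp5, at 0.71. Within the family Fos and Fosb were the closest pair (0.81), then Fosl2 and Atf3 (0.81), while Fosl1 and Jun had -0.13. These values share library, depth, dissociation and the difference between genotypes, which was not taken out and on which the members were chosen. At E17.5, with a single library per group, the values of a class are of equal size and opposite sign. No p is given.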

How the data were processed

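Per the labels, back skin was dissociated with collagenase and trypsin and made into 10x Genomics 3′ libraries, with a different chemistry at each stage. The deposited files hold UMI counts per gene and cell, which the authors made against mm10; the submitters' processing notes name Cell Ranger 1.3.1 and 6.1.2 without saying which file each made. The members and gene lists were chosen with earlier results of these data known.

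Counts were summed per library and class, with the limits given in the report. The edgeR 4.0.16 quasi-likelihood test (TMM, filterByExpr, Benjamini-Hochberg over all genes tested, threshold 0.05) was run in R 4.3.3 within each stage and class, with the library as a block for differences between classes of the same libraries. Alternatives were DESeq2 1.42.0, library size alone, no count filter, other cell and class limits, a replicate block and each library left out; removal of cells with 30 or more UMIs of Col1a1 and Col3a1 was added after seeing the data. At E17.5, genes at 20 or more CPM in either library were counted past 1.5-fold, with exact 95% Poisson intervals. The fits were tested on simulated data.

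From each gene list the text names the 4 genes with the largest absolute change in E16.5 basal cells among those at a mean of 50 or more CPM in either group; 1 gene so chosen is not reported here. Other listed genes were named after their values were seen. Likeness names come from the 3 highest correlations of each member. Kept cells of any 2 libraries of a stage shared 0 to 36 barcodes, and no such pair agreed within sampling noise. No doublet caller was run. Genes listed for E15.5 and E17.5 (32285) and for E16.5 (27998) were joined by Ensembl ID, of which 27040 were shared. Promoter sequences are RefSeq's.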

Additional observations from a re-analysis of the deposited data

Results flagged for a closer look

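A result was picked out by a test of a difference, and the others because all libraries of a group moved one way and all of another the opposite way. The difference between stages in the basal MOF cKO change of Fosl1 was 5.38 on the log2 scale (edgeR adjusted p = 0.0405), and it kept its size, 4.90 to 5.87, without any 1 library, while the call was lost in 5 of those 8 fits.

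Fosb at E15.5 had -0.87 in basal and -0.88 in suprabasal cells but 0.13 in fibroblasts. Jund at E15.5 had -0.10 in basal cells and 0.11 in fibroblasts. At E16.5, Jun had -0.35 in basal cells and 0.79 in fibroblasts, and Junb had -0.012 and 0.93. For these basal and fibroblast pairs the difference itself was tested by edgeR and did not pass; that between suprabasal cells and fibroblasts was not tested.

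Between stages, Fos in suprabasal cells had -0.48 at E15.5 and 1.28 at E16.5, and Atf3 in fibroblasts had -0.51 and 1.28. Fosl1 had -2.18 in suprabasal cells and -1.76 in fibroblasts at E15.5, while its few UMIs at E16.5 lay the other way and could not be fitted. These differences between stages were not tested.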

How the results depend on the processing

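Of the 864 fits of a member under an alternative, 700 kept their direction and their side of the threshold, 73 gained a call, 49 lost a call and 42 changed sign. In E15.5 basal cells (0 members called), DESeq2 called 3, no count filter 1, and leaving out 1 library 0 to 7. In E15.5 suprabasal cells (0), these were 2, 4 and 0 to 6, and in fibroblasts (0), DESeq2 called 1 and no filter 2. In E16.5 basal cells (0), DESeq2, no filter, class limits of 2 times the UMIs and limits per 10000 UMIs each called 1, Fosl1. In E16.5 fibroblasts (2), DESeq2 called 5, library size alone 0, no filter 6, limits of 2 times the UMIs 1, and leaving out 1 library 0 to 2. The difference between basal cells and fibroblasts (0) had 0 to 6 members called at E15.5 and 0 to 3 at E16.5 with 1 library left out, and the difference between stages (1) had 0 with library size alone, 2 with no filter and 0 to 1 with 1 library left out. Both comparisons of control classes (5 each) had 1 to 5 with 1 library left out, and without cells of 30 or more collagen UMIs suprabasal against basal cells had 3. In E17.5 suprabasal cells (5 past 1.5-fold), limits per 10000 UMIs left 3. The cause of these moves was not tested; with 1 library left out, the lone library of an arm is assumed to vary like the others.

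Signs changed mostly in the small E16.5 classes. Library size alone moved the median of all genes there from -0.11 to -0.64 in basal and from -0.05 to -0.58 in suprabasal cells, and gave -0.43 for Fos, -0.11 for Jund and -0.34 for Atf3 in basal cells, -0.029 for Fosl2, -0.020 for Jund and -0.11 for Atf3 in suprabasal cells, and -0.17 for Jun in the difference between stages. With limits of 2 times the UMIs, basal Fosb had 0.37, Junb 0.077 and Atf3 -0.094; with limits per 10000 UMIs these had 0.95, 0.10 and -0.12, and suprabasal Jun 0.12. Without cells of 30 or more collagen UMIs, they had 0.33, 0.12 and -0.014, and suprabasal Jun 0.17. Under 5% mitochondrial UMIs basal Fos had -0.0012, with DESeq2 basal Junb 0.019, and with no upper limit on genes suprabasal Atf3 -0.43. Leaving out 1 library gave -0.36 to 0.48 for Fos, -2.11 to 0.41 for Fosb, -0.23 to 0.23 for Junb and -0.25 to 0.50 for Atf3 in E16.5 basal cells, -0.0096 to 0.88 for Fosl2 and -0.66 to 0.61 for Jun in suprabasal cells, -0.27 to 0.0059 for Fosl2, -0.013 to 0.11 for Jun and -0.093 to 0.17 for Junb in E15.5 fibroblasts, -0.59 to 0.092 for Fosl1 in the E15.5 difference, -1.27 to 1.37 for Fosb and -0.053 to 0.44 for Jun between stages, and -0.34 to 0.027 for Jun in control suprabasal against basal cells.

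Counts over all genes moved more. E15.5 basal cells had 0 genes called, 113 with DESeq2, 2 with no filter and 0 to 7518 with 1 library left out, and the suprabasal cells 0, 49, 525 and 0 to 1762. E15.5 fibroblasts had 0, 494, 222 and 0 to 114. E16.5 basal cells had 23, 295, 991 and 0 to 434, with 824 and 765 under the stricter class limits, and E16.5 fibroblasts 583, 950, 1752 and 0 to 369.

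The E16.5 replicate numbers were shared between groups. Deviations of same-numbered libraries correlated at -0.0825 in basal, -0.0281 in suprabasal and -0.0396 in fibroblast sums. With 2 libraries per group this cannot decide whether a shared number marks littermates. The paper describes pairs of samples with littermate controls. With a replicate block, 1 of the 2 fibroblast members stayed called (Fosl2), basal Junb had 0.0043, suprabasal Jun 0.022, and the genes called were 52 in basal, 88 in suprabasal and 576 in fibroblast cells. E15.5 groups shared no number.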

Other observations

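Fosl1 in fibroblasts differed between libraries at E17.5. In the E17.5 control, 142 of 1759 fibroblasts (8.07%) had a UMI of Fosl1, with up to 9 in a single cell, and 99 of 3355 (2.95%) had one in QPC cKO. In the E15.5 libraries this share was 0.23% to 1.15% and in the E16.5 libraries 0.279% to 1.35%, at lower median depth per cell. With cells thinned to 5000 UMIs, the shares at E17.5 were 2.35% and 0.898%, and those of basal cells in the same libraries were 1.75% and 1.14%.

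In E16.5 suprabasal cells, 9 and 13 in MOF cKO, edgeR called several of the listed genes around AP-1, which were chosen after their values were seen. Hbegf (3.34 ± 0.69, adjusted p = 0.0454), Ier3 (3.38 ± 0.52, adjusted p = 0.0219) and Stat3 (2.26 ± 0.44, adjusted p = 0.039) rose, beside 4.03% of all genes called. Whether these entered the fit only through their MOF cKO counts was not checked. Lor, a cornified envelope gene of late differentiation, fell by 7.81 ± 0.93 on the log2 scale (adjusted p = 0.0112). No member was called in these cells. The median mitochondrial share of a cell's UMIs was 0.0811% and 0.0693% in these MOF cKO cells and 3.44% and 2.02% in control. Immune markers summed to 62.3 and 82.2 CPM against 14.1 and 18.2. Their part in these calls was not tested.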
